A study of Mus musculus with 6 samples.

Results

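The 9 genes described here are the peroxisome proliferator-activated receptors Ppara, Ppard and Pparg, the retinoid X receptors Rxra and Rxrb, and 4 classical targets of these receptors, Plin2, Angptl4, Pdk4 and Acaa1b. They were chosen by symbol, as nuclear receptors that PFOA can activate and genes these receptors are known to control, and all 9 were found among the 18388 genes measured, where they stand in upper case as PPARA, PPARD, PPARG, RXRA, RXRB, PLIN2, ANGPTL4, PDK4 and ACAA1B. Expression was measured by polyA RNA-seq in morula-like aggregates, a 3-dimensional culture that mimics the embryo around compaction, made from expanded pluripotent stem cells of the mouse, which can give rise to embryonic and extraembryonic lineages. The groups were 3 libraries from aggregates given PFOA (perfluorooctanoic acid, a persistent fluorinated surfactant) and 3 from aggregates given the vehicle DMSO. Both groups went through the same medium for expanded cells followed by an induction medium. The sources used here give neither the stem cell line nor the dose and duration of PFOA. Whether replicates are separate cultures is not stated either, so the p-values reflect the spread among these 6 libraries, and that spread may be technical.

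PPARs are ligand-activated transcription factors that sense fatty acids and related acids. Each binds DNA as a pair with an RXR, at a direct repeat of the sequence AGGTCA with a short spacer, and recruits coactivators when a ligand is bound. PPARα drives fatty acid oxidation in liver and is the best known receptor for PFOA in rodents, PPARδ is the widely expressed member of the family, and PPARγ is the master regulator of fat cells.

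Values are FPKM, which count fragments per kilobase of a transcript relative to all fragments of a library, so levels of different genes can be set side by side per length. FPKM summed to between 585739 and 630644 in the PFOA libraries and between 641975 and 657239 in the DMSO libraries, and the depth is unknown. Across genes, any PFOA library and any DMSO library correlated at a Spearman's rho of 0.988 to 0.991, and libraries of 1 group at 0.989 to 0.991. DMSO 1 and 2 stood apart from the other 4 libraries by more than 0.7 on the log2 scale in 18 genes, 14 of them higher and 4 lower, and 0 of these genes belonged to the receptors, the targets or the pathway lists. All 8 markers of pluripotent cells were expressed, with means of 24.9 to 2095 FPKM. Among fibroblast markers the highest mean was 7.57 FPKM. Of 5 fat cell markers 4 were found, and their summed FPKM was 0.62 to 1.34 in PFOA and 1.15 to 1.22 in DMSO. Fabp4 had 0.45 to 1.03 FPKM in PFOA and 1.03 to 1.18 FPKM in DMSO. Cidec had 0.04 FPKM in every PFOA library and 0.04 to 0.12 FPKM in DMSO. Adipoq and Plin1 reached 0.19 and 0.08 FPKM in PFOA and were listed at 0 in every DMSO library. Of 5 liver markers 3 were found, and their sum was 0.08 to 1.28 FPKM in PFOA and 0 to 0.53 FPKM in DMSO. Apoa2 reached 1.05 FPKM in PFOA and 0.53 FPKM in DMSO, and Ttr and Apoa1 reached 0.23 and 0.08 FPKM in PFOA and were listed at 0 in every DMSO library.

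PPARδ was the main PPAR transcript of these aggregates, and PPARα was close to the bottom of the table. Ppard had 16.0, 14.96 and 14.84 FPKM in PFOA 1 to 3, against 16.9, 16.9 and 15.6 FPKM in DMSO 1 to 3. Pparg had 1.14, 0.96 and 1.03 FPKM in PFOA 1 to 3, against 1.23, 0.87 and 1.01 FPKM in DMSO 1 to 3. Ppara had 0.05, 0.10 and 0.07 FPKM in PFOA 1 to 3, against 0.06, 0.05 and 0.08 FPKM in DMSO 1 to 3. The groups overlapped for each of the 3 receptors. Over the 6 libraries the mean of Ppard was 15.3 times that of Pparg and 232 times that of Ppara, and the last ratio is coarse because values are given to 2 decimals. The mean of Ppara lay at the 14.5th percentile of all genes in the table, that of Pparg at the 35.8th and that of Ppard at the 72.3rd. Ppard made up 93.2% ± 0.17 of the summed PPAR FPKM in PFOA libraries and 93.7% ± 0.99 in DMSO libraries (SD, n = 3 each), a difference smaller than the spread between libraries (two-sided exact permutation p = 0.6).

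**Figure D1:**
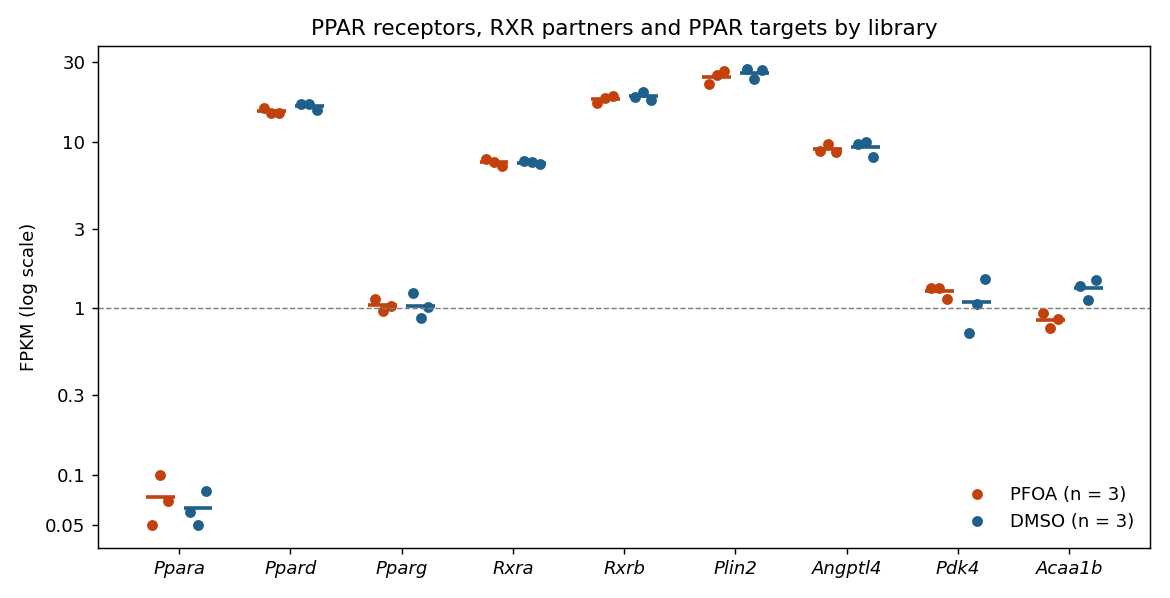
FPKM of each of the 9 genes on a log scale in the 3 PFOA libraries (orange, left) and the 3 DMSO libraries (blue, right), with a line at the mean of each group; the dashed line is the mean of 1 FPKM that a gene needed to enter the main test. Ppara sits between 0.05 and 0.1 FPKM, and Acaa1b is the gene whose groups do not overlap.

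None of the PPARs passed the test between PFOA and DMSO. Differences were taken on log2(FPKM + 1) and tested over all 11876 genes with a mean of at least 1 FPKM, with limma and Benjamini-Hochberg adjustment at 0.05. Ppard averaged 15.3 ± 0.66 FPKM in PFOA and 16.5 ± 0.77 FPKM in DMSO (SD, n = 3 each), a log2 fold change of −0.10 (SE 0.052, 95% confidence interval −0.22 to 0.017, limma adjusted p = 0.301). It was lower in PFOA 2 and 3 than in any DMSO library, but PFOA 1 lay above DMSO 3. Pparg differed by 0.0076 on the log2 scale (SE 0.092, interval −0.20 to 0.22, limma adjusted p = 0.97). Ppara was under the level needed for the main test; in the fit without a filter on low values its log2 fold change was 0.013 (interval −0.058 to 0.084, limma adjusted p = 0.866), on a scale where the added 1 is far larger than the values themselves.

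Both RXR partners were expressed, and RXRβ was the higher. RXRs are the obligate partners of PPARs and of several other nuclear receptors. Rxrb had 17.02, 18.2 and 18.9 FPKM in PFOA 1 to 3, against 18.6, 19.8 and 17.8 FPKM in DMSO 1 to 3. Rxra had 7.85, 7.60 and 7.12 FPKM in PFOA 1 to 3, against 7.64, 7.52 and 7.32 FPKM in DMSO 1 to 3. The groups overlapped for both genes, and the mean of Rxrb over the 6 libraries was 2.45 times that of Rxra. Neither passed the test: the log2 fold change was −0.050 for Rxrb (SE 0.056, interval −0.18 to 0.078, limma adjusted p = 0.638) and 0.0043 for Rxra (SE 0.054, interval −0.12 to 0.13, limma adjusted p = 0.971). The third family member, Rxrg, averaged 0.23 ± 0.049 FPKM in PFOA and 0.18 ± 0.095 FPKM in DMSO, under the level tested. Rxrb made up 70.5% ± 2.1 of the FPKM of Rxra and Rxrb together in PFOA libraries and 71.4% ± 0.97 in DMSO libraries (SD, n = 3 each; two-sided exact permutation p = 0.5).

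Sequences upstream of the transcription starts are shown for the members that hold the closest matches to the PPAR-RXR element, because PPAR-RXR pairs act through such elements. RefSeq promoters (build GRCm38.p6, which is not the build of the expression table) were found for 8 of the 9 genes, in 12 windows, and none for Angptl4. The 250 bases before each start were searched on both strands for the direct repeat AGGTCANAGGTCA. Sites further upstream or within the genes were not searched. Of all 32851 promoter windows in the RefSeq set, 3.24% held it with at most 2 mismatches. Among the members, 2 windows did, those of Plin2 and of 1 of the starts of Rxra, while the best match in the other 10 had 4 or 5 mismatches. An exact AGGTCA on either strand was held by 4 of the 12 windows (1 of Rxra, 1 of Plin2 and 2 of Pparg), against 14.02% of all windows; this hexamer is contained in the longer repeat, and windows of 1 gene are not independent. The match lies 213 to 225 bases before the start of Plin2 (chr4:86670272-86670284, gene on the minus strand) and 63 to 75 bases before the start of Rxra (chr2:27709217-27709229, gene on the plus strand). Both are printed in the direction of their gene with 24 bases on either side (chr4:86670248-86670308 and chr2:27709193-27709253) and the matched bases in capitals; that of Plin2 reads AGGTCAGGGGTCC on the opposite strand.
Plin2: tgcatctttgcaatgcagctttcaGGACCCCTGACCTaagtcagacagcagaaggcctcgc
Rxra: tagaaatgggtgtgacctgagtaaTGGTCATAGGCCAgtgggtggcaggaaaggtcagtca

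Of the targets, Plin2 was the highest and Angptl4 the next, and neither differed between the groups beyond the spread of the libraries. Plin2 encodes perilipin 2, a coat protein of lipid droplets and one of the most general PPAR targets. It had 22.2, 25.01 and 26.6 FPKM in PFOA 1 to 3, against 27.4, 23.7 and 26.9 FPKM in DMSO 1 to 3. PFOA 1 was the lowest library, and the groups overlapped. The log2 fold change was −0.077 (SE 0.075, interval −0.25 to 0.095, limma adjusted p = 0.585). Its paralog Plin3, which coats lipid droplets in many tissues, was higher, at 59.8 ± 3.6 FPKM in PFOA and 63.0 ± 1.7 FPKM in DMSO (SD, n = 3 each; log2 fold change −0.076, limma adjusted p = 0.402). Plin2 made up 29.1% ± 1.6 of the FPKM of this pair in PFOA libraries and 29.2% ± 1.8 in DMSO libraries (two-sided exact permutation p = 1).

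Angptl4 encodes a secreted inhibitor of lipoprotein lipase that is induced by fasting, hypoxia and PPAR ligands. It had 8.81, 9.72 and 8.71 FPKM in PFOA 1 to 3, against 9.73, 9.90 and 8.05 FPKM in DMSO 1 to 3. The highest and the lowest of the 6 values were both DMSO libraries. The log2 fold change was −0.017 (SE 0.080, interval −0.20 to 0.17, limma adjusted p = 0.922). Of 6 other angiopoietin-like genes, 2 were high enough to test. Angptl6, at 1.26 ± 0.26 FPKM in PFOA and 1.91 ± 0.093 FPKM in DMSO, was lower in each PFOA library but did not pass (SD, n = 3 each; log2 fold change −0.37, limma adjusted p = 0.128). Such a separation downward was seen in 13.7% of all tested genes. The longest Angptl6 transcript is 1582 nt. Its log2 fold change was −0.29 with a trend on the longest transcript length removed from each library, and −0.33 with a trend on median transcript length removed. Angptl2 was 1.84 ± 0.26 FPKM in PFOA and 2.13 ± 0.18 FPKM in DMSO (log2 fold change −0.14, limma adjusted p = 0.387).

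Pdk4 encodes a kinase that switches off pyruvate dehydrogenase and so spares glucose when fat is burned. It had 1.33, 1.32 and 1.13 FPKM in PFOA 1 to 3, against 0.71, 1.06 and 1.5 FPKM in DMSO 1 to 3. The DMSO values enclosed all 3 PFOA values, and the SD was 0.11 FPKM in PFOA and 0.40 FPKM in DMSO. The log2 fold change was 0.13 (SE 0.13, interval −0.18 to 0.43, limma adjusted p = 0.608), the widest interval among the tested members. The other pyruvate dehydrogenase kinases were Pdk3, at 20.4 ± 0.43 FPKM in PFOA and 19.8 ± 0.57 FPKM in DMSO, Pdk1, at 11.7 ± 1.0 FPKM in PFOA and 9.94 ± 0.56 FPKM in DMSO, and Pdk2, at 2.84 ± 0.61 FPKM in PFOA and 2.70 ± 0.19 FPKM in DMSO (SD, n = 3 each). Pdk1, which is a target of hypoxia-inducible factor, was higher in every PFOA library than in any DMSO library, without passing the test (log2 fold change 0.22, interval 0.056 to 0.38, limma adjusted p = 0.158). Such a separation upward was seen in 13.5% of all tested genes. The longest Pdk1 transcript is 5185 nt. Its log2 fold change was 0.16 with a trend on the longest transcript length removed from each library, and 0.14 with a trend on median transcript length removed. Pdk4 made up 3.48% ± 0.40 of the FPKM of these 4 kinases in PFOA libraries and 3.23% ± 1.1 in DMSO libraries (two-sided exact permutation p = 0.8).

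Acaa1b was the member with the largest difference, and it was lower in PFOA. It encodes a peroxisomal thiolase, the enzyme of the last step of peroxisomal fatty acid oxidation, and it is the mouse copy that peroxisome proliferators induce in liver. Acaa1b had 0.93, 0.76 and 0.86 FPKM in PFOA 1 to 3, against 1.36, 1.12 and 1.48 FPKM in DMSO 1 to 3. Every PFOA library was below every DMSO library, which was so for 13.7% of all tested genes. The log2 fold change was −0.32 (SE 0.089, interval −0.53 to −0.12), and it did not pass over all genes (limma unadjusted p = 0.0061, adjusted p = 0.135; two-sided exact permutation p = 0.1, the smallest that 3 against 3 libraries allow). Acaa1b was the 1 member of 8 with an unadjusted p under 0.05, against 21.1% of all tested genes in either direction and 12.5% lower in PFOA. Its level, near 1 FPKM, is low, and the number of reads behind it is unknown. Acaa1b reached the mean of 1 FPKM needed for the test only through the DMSO libraries. Its mean was 0.85 FPKM in PFOA and 1.32 FPKM in DMSO. In the fit without a filter on low values its limma adjusted p was 0.22.

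**Figure D2:**
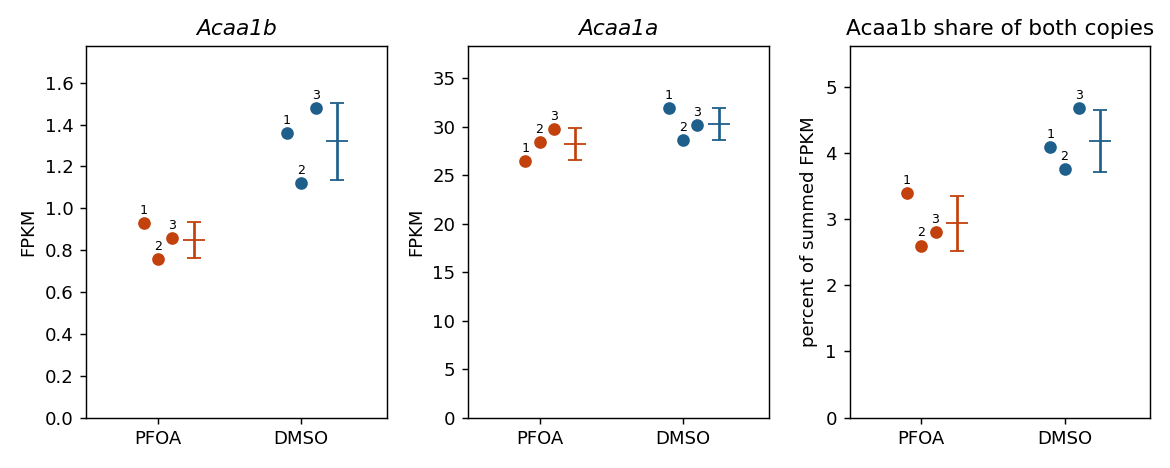
FPKM of Acaa1b (left) and Acaa1a (middle) and the share of Acaa1b in their summed FPKM (right) in PFOA and DMSO libraries, with the replicate number beside each point and the mean ± SD at its side. Acaa1b and its share are lower in all 3 PFOA libraries, while Acaa1a overlaps between the groups.

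The value of Acaa1b depends on how reads were divided between it and its near-identical copy Acaa1a. Acaa1a, the copy expressed in most tissues, had 26.5, 28.5 and 29.8 FPKM in PFOA 1 to 3, against 32.0, 28.7 and 30.2 FPKM in DMSO 1 to 3. The groups overlapped (log2 fold change −0.096, interval −0.22 to 0.031, limma adjusted p = 0.351), and its mean over the 6 libraries was 27.0 times that of Acaa1b. The coding sequences of the copies have the same length, 1272 bases without the stop codon, and differ at 44 bases (96.5% identity in GENCODE M21). The longest run without a difference is 327 bases, and 35.6% of the 50-base words of Acaa1b transcripts also occur in Acaa1a. The 120 coding bases with the most differences, 14, are bases 433 to 552 counted from the start codon; they are shown because reads from such a stretch can be told apart, and the capitals mark the differing bases.
Acaa1b: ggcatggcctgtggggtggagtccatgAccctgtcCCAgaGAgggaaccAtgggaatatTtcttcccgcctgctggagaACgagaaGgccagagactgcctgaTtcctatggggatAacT
Acaa1a: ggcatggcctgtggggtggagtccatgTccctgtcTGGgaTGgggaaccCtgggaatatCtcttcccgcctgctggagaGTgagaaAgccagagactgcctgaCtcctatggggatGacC
Acaa1b made up 2.93% ± 0.41 of the summed FPKM of both copies in PFOA libraries and 4.17% ± 0.47 in DMSO libraries (SD, n = 3 each; two-sided exact permutation p = 0.1, the smallest possible). In addition, 11.4% of the annotated exonic bases of Acaa1b overlap Dlec1 on the opposite strand, and the sources used here do not say whether counting used strand.

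Other measures moved with the groups beside Acaa1b. The summed FPKM of the 7 fibroblast markers was 17.6 to 19.4 in PFOA and 19.5 to 23.96 in DMSO. All 7 were above 0 in every library. Of these 7, 1 (Dcn) was lower in every PFOA library and 0 were higher in every one. Thy1 and Dcn had the highest means and log2 fold changes of −0.24 each. Postn was at −0.14, Col1a1 at −0.010 and Col1a2 at −0.038. Under the level tested, Col3a1 averaged 0.49 FPKM in PFOA and 0.76 FPKM in DMSO, and Lum 0.16 FPKM in PFOA and 0.13 FPKM in DMSO. The sum of the 8 pluripotency markers was 3516 to 3987 FPKM in PFOA and 4131 to 4321 FPKM in DMSO. The pluripotency sum was mostly Dppa5a, at 1952 ± 244 FPKM in PFOA and 2239 ± 56 FPKM in DMSO, and Pou5f1, at 885 ± 34 FPKM in PFOA and 979 ± 34 FPKM in DMSO (SD, n = 3 each). Of the 8 pluripotency markers, 3 were lower in every PFOA library (Pou5f1, Nanog and Dppa5a), 2 were higher in every one (Esrrb and Tfcp2l1) and 3 overlapped. Among all tested genes, 13.7% were lower in every PFOA library and 13.5% were higher in every one. With a trend on the longest transcript length removed from each library, the log2 fold change was −0.024 for Dppa5a and −0.039 for Pou5f1. Thy1 and Dcn were then at −0.17 each, Postn at −0.14, Col1a2 at −0.093 and Col1a1 at −0.080. In these bulk libraries, fewer cells of a type and less RNA per cell cannot be told apart. The part of either marker sum in the Acaa1b difference was not tested. Transcript length moved with the groups as well: in the 3072 tested genes whose longest transcript is under 2000 nt the log2 fold change had a median of −0.10 and was below 0 in 82.9%, while among the 2306 genes of 5000 nt or more the median was 0.087 and 15.05% were below 0. The longest Acaa1b transcript is 1689 nt. With the trend on the longest transcript length removed, its log2 fold change was −0.24 (limma adjusted p = 0.337), and with a trend on the median transcript length of each gene, a correction added after the data were seen, it was −0.29.

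Across all tested members, 0 of 8 passed limma at an adjusted p of 0.05, against 0.00842% of all tested genes (1 gene of 11876, lower in PFOA, and 0 higher). The median log2 fold change was −0.034 over the 8 members, with 3 above and 5 below 0, and −0.0065 over all tested genes. Half-widths of the 95% confidence intervals had a median of 0.14 over all tested genes. In order of level, Plin2 was followed by Rxrb, Ppard, Angptl4 and Rxra, and the ranges over the 6 libraries of neighbours in this order did not overlap, although Rxrb and Ppard were separated by only 17.02 against 16.9 FPKM and Angptl4 and Rxra by 8.05 against 7.85 FPKM. Pdk4, Acaa1b and Pparg came next with overlapping ranges, and Ppara was far below them.

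**Figure D3:**
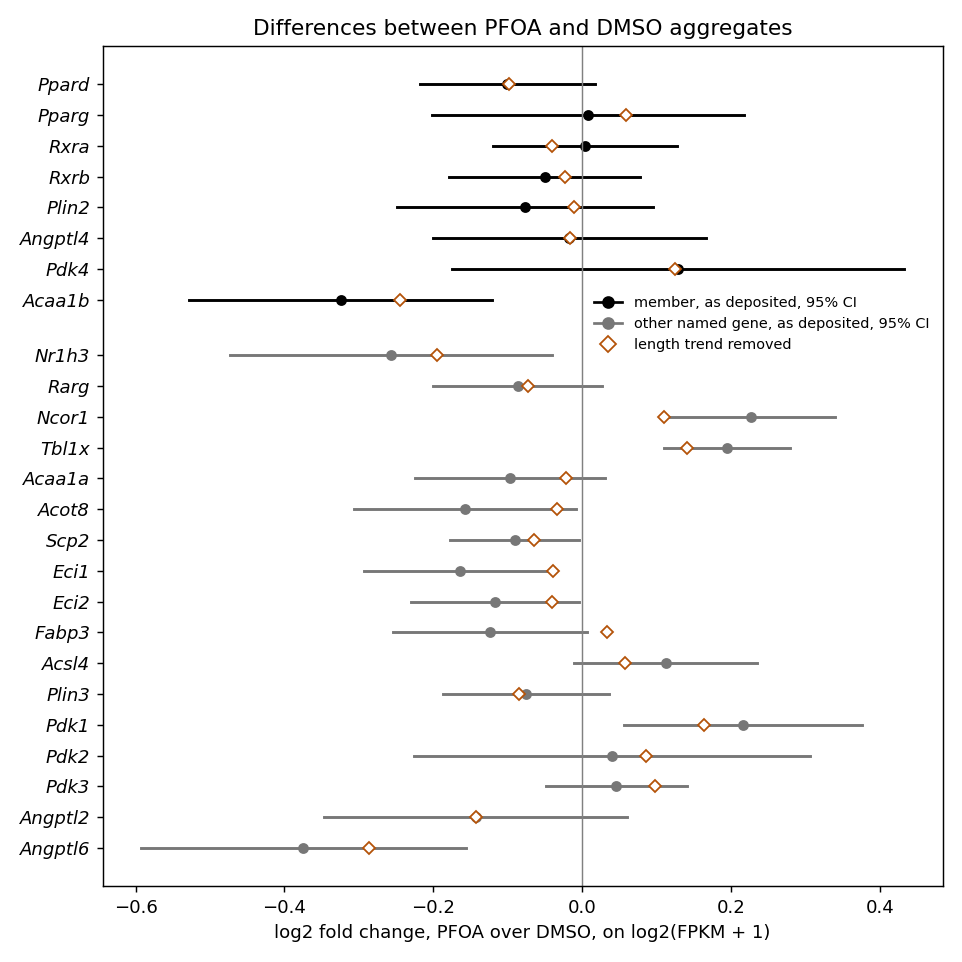
Log2 fold change of PFOA over DMSO for the 8 tested members (black) and the other named genes (grey) with 95% confidence intervals, and the value with the trend on the longest transcript length removed (open diamonds). Among the members, the interval of Acaa1b lies below 0 and the other 7 include 0.

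The cofactors through which PPAR-RXR pairs act had log2 fold changes above 0, without any passing the test. Of 15 listed coactivators and corepressors 13 were tested, 13 were above 0, and the median log2 fold change was 0.13, against −0.0065 over all tested genes, of which 47.6% were above 0. In 5 of the 13 every PFOA library was above every DMSO library, which was so for 13.5% of all tested genes. An unadjusted p under 0.05 was reached by 6 of the 13, against 8.56% of all tested genes in this direction. Ncor1, a corepressor that holds unliganded nuclear receptors silent, had 57.3, 52.5 and 51.7 FPKM in PFOA 1 to 3, against 45.4, 44.4 and 47.7 FPKM in DMSO 1 to 3 (log2 fold change 0.23, SE 0.049, limma adjusted p = 0.118). Tbl1x, a subunit of the same corepressor complex, had 40.5, 40.3 and 38.5 FPKM in PFOA 1 to 3, against 34.3, 34.8 and 34.8 FPKM in DMSO 1 to 3 (log2 fold change 0.19, SE 0.037, limma adjusted p = 0.11). The transcripts of these cofactors are long, with a median of 8024 nt. Among the 2306 tested genes of 5000 nt or more, the median log2 fold change was 0.087 and 15.05% were below 0. The shift depended on how length was taken into account. With the trend on the longest transcript length removed, 10 of 13 were above 0 and the median was 0.026, with Ncor1 at 0.11 and Tbl1x at 0.14. With the trend on median transcript length removed, 12 of 13 were above 0 and the median was 0.12, with Ncor1 at 0.21 and Tbl1x at 0.12. Ppargc1a, the coactivator of PPARs in brown fat, muscle and fasting liver, was at 0.013 ± 0.0058 FPKM in PFOA and 0.023 ± 0.0058 FPKM in DMSO (SD, n = 3 each) and was named after its value was seen.

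The other nuclear receptors that pair with RXR were below 0 for 6 of 6 tested genes of 13 listed, with a median of −0.071, and 0 passed the test. Over the whole table, 6225 of 11876 tested genes were below 0, with a median of −0.0065. The remaining 7 receptors of the list were under the level tested. Under quantile normalization, with library weights and with either length trend removed, 5 of the 6 were below 0. Without PFOA 1, 4 of 6 were below 0 at a median of −0.047, and without both DMSO 1 and DMSO 2, 3 of 5 tested genes were, at a median of −0.012. Nr1h3, the oxysterol receptor LXRα, had 0.91, 0.83 and 0.81 FPKM in PFOA 1 to 3, against 0.97, 1.28 and 1.40 FPKM in DMSO 1 to 3. The groups did not overlap, at a log2 fold change of −0.26 (interval −0.47 to −0.040, limma adjusted p = 0.186). Every PFOA library was below every DMSO library in 13.7% of all tested genes. Nr1h3 reached the level tested only through DMSO, with a mean of 0.85 FPKM in PFOA and 1.22 FPKM in DMSO. Without DMSO 2 or without DMSO 3 it was under that level. Rarg, a retinoic acid receptor and an abundant partner, was 94.5 ± 4.6 FPKM in PFOA and 100.4 ± 4.8 FPKM in DMSO (SD, n = 3 each; log2 fold change −0.086, limma adjusted p = 0.348). The xenobiotic receptors Nr1i2 (PXR) and Nr1i3 (CAR), which fluorinated surfactants can also activate in liver, had at most 0.09 and 0.10 FPKM in any library; they were named after their values were seen.

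Further PPAR targets were mostly expressed and close to 0 in log2 fold change. Of 15 peroxisomal targets 12 were tested, 4 above and 8 below 0, with a median of −0.017. Acot8, a peroxisomal acyl-CoA thioesterase, was 16.4 ± 0.73 FPKM in PFOA and 18.4 ± 1.6 FPKM in DMSO (SD, n = 3 each; log2 fold change −0.16, limma adjusted p = 0.22). Its longest transcript measures 1152 nt, and its log2 fold change was −0.034 with the trend on the longest length removed and −0.089 without DMSO 3. The sterol carrier Scp2 was 20.1 ± 0.32 FPKM in PFOA and 21.5 ± 0.24 FPKM in DMSO (log2 fold change −0.091, limma adjusted p = 0.223), and 37.5% of its 50-base words occur in a pseudogene. Of the 19 mitochondrial and ketogenic targets 17 were tested, 2 above and 15 below 0, with a median of −0.031; quantile normalization made it 6 above and 11 below. It was 9 above and 8 below, at a median of 0.0056, with the trend on the longest length removed, and 7 above and 10 below, at a median of −0.010, with the trend on median length removed. The isomerases of unsaturated fatty acid oxidation were the leading genes of this list: Eci1 was 25.6 ± 0.58 FPKM in PFOA and 28.9 ± 2.2 FPKM in DMSO (log2 fold change −0.16, limma adjusted p = 0.169), and Eci2 was 17.8 ± 0.37 FPKM in PFOA and 19.4 ± 1.1 FPKM in DMSO (log2 fold change −0.12, limma adjusted p = 0.224). Their longest transcripts measure 1137 and 1746 nt, and removal of the longest-length trend left Eci1 at −0.039 and Eci2 at −0.041. In none of these lists did a gene pass the test (0 called by limma; 2 of 12 peroxisomal and 2 of 17 mitochondrial genes had an unadjusted p under 0.05, against 21.1% of all tested genes).

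**Figure D4:**
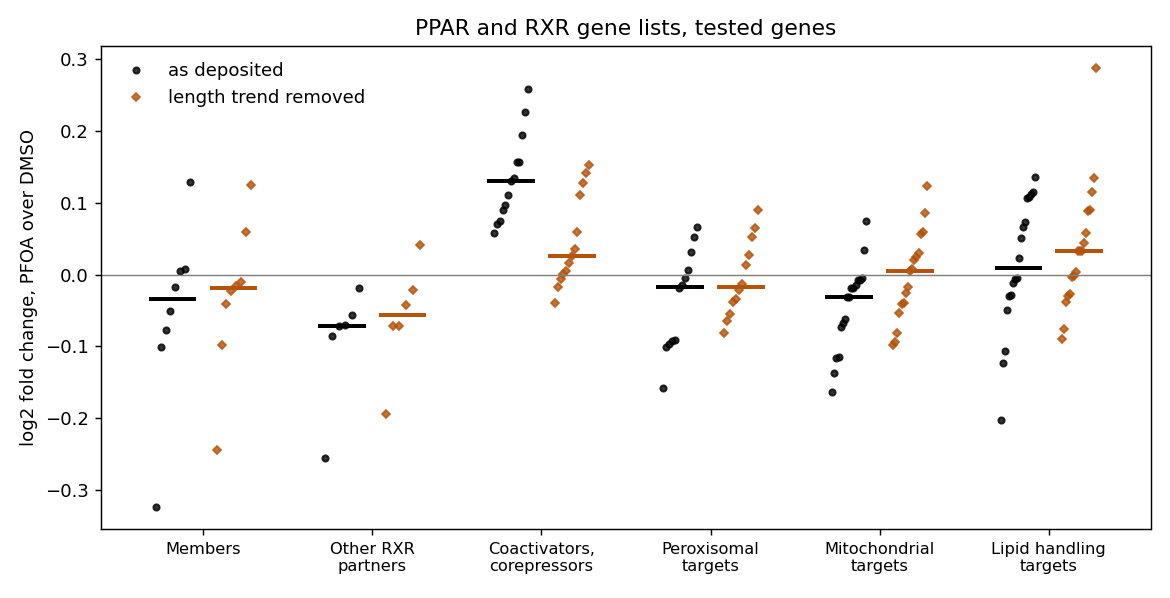
Log2 fold change of PFOA over DMSO for the tested members and for each pathway list with at least 6 tested genes, as deposited (black) and with the trend on the longest transcript length removed (orange), 1 point per gene and a line at the median. The cofactor list has a median of 0.13 as deposited and 0.026 with this trend removed; with the trend on median length removed, which is not drawn, it is 0.12.

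Genes of lipid uptake, binding and storage divided evenly in the main fit. Of 28 listed 18 were tested, 9 above and 9 below 0, with a median of 0.0088. The split moved with the setting. It was 11 above and 7 below with either length trend removed, and 12 above and 6 below without DMSO 1. Without both DMSO 3 and PFOA 1 it was 7 above and 11 below. In limma, 0 of the 18 passed the test, against 0.00842% of all tested genes. An unadjusted p under 0.05 was reached by 0 of the 18, against 21.1% of all tested genes. The fatty acid binding protein Fabp3 was the most abundant gene of this list. It had 329, 370 and 362 FPKM in PFOA 1 to 3, against 408, 374 and 373 FPKM in DMSO 1 to 3. Its log2 fold change was −0.12 (limma adjusted p = 0.256), 0.033 with the trend on the longest length removed and −0.055 with that on median length removed; 29.2% of its 50-base words occur in a pseudogene. Acsl4, which activates long-chain fatty acids, was 10.05 ± 0.32 FPKM in PFOA and 9.22 ± 0.47 FPKM in DMSO (SD, n = 3 each; log2 fold change 0.11, limma adjusted p = 0.272). Cyp4a10, a fatty acid hydroxylase that PPARα ligands induce in liver, was under the level tested: it had 0.03 FPKM in PFOA 3 and was listed at 0 in the other 5 libraries, and it was named after its values were seen.

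Each tested member was also matched to the gene whose log2 values over the 6 libraries were most like its own, among 11401 others. These were Cnot7 for Ppard (Pearson's r 0.993), Axin2 for Pparg (0.978), Zfp551 for Rxra (0.987), Lamtor1 for Rxrb (0.996), Fars2 for Plin2 (0.979), Ubxn11 for Angptl4 (0.983), Mlxipl for Pdk4 (0.990) and Dbr1 for Acaa1b (0.997). The points share 6 libraries, and for each member between 48 and 124 genes had r above 0.9, so these matches are a description only.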

How the data were processed

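The authors deposited FPKM, rounded to 2 decimals, for 18388 symbols in 6 libraries; groups and replicate numbers come from the titles. HISAT2 2.0.4, Bowtie2 2.2.5 and build GRCm39 are listed in the submitters' processing notes; the sources used here do not give the counting tool or annotation. Since FPKM is relative to the library total, a fall of abundant transcripts raises others. Of 206 low values of genes up to 700 nt, 68.4% lay within 0.15 of a whole multiple of the gene's smallest value in another library. Because the depth of each library is unknown, this check cannot show whether the values hold whole reads. Only FPKM were at hand, and counts were not modelled.

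log2(FPKM + 1) was compared in limma 3.58.1 (R 4.3.3) with a variance trend, two-sided, for 11876 genes with a mean of at least 1 FPKM; 6512 were left out. The added 1 understates changes of low genes. Exact permutation tests used scipy 1.17.1 over 20 assignments of 6 libraries. Lengths (97.1% of tested genes), shared words and exon overlaps came from GENCODE M21 on GRCm38, matched by symbol without regard to case. Removing the length trend took a lowess curve (span 0.3) on the longest transcript, or in an added alternative on the median transcript length, from each library. Members and lists were chosen with earlier results of these data known. Named genes are all members and up to 2 tested genes per pathway list with the smallest p. The paralogs Acaa1a, Plin3, Pdk1, Pdk2, Pdk3 and Rxrg and the gene most like each tested member are named too. Other genes named from the pathway lists are said to be named after their values were seen. Cell type markers came from fixed lists, but no rule set which of them are named singly, and their values were known.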

Additional observations from a re-analysis of the deposited data

How the results depend on the processing

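No member passed the threshold under any of the 19 alternatives (limma, 0 of 5 to 9 members tested), and Ppard and Acaa1b stayed below 0 wherever they were tested; the adjusted p of Acaa1b ranged from 0.119 to 0.858 and its log2 fold change from −0.58 (pseudocount 0.1) to −0.24. The number of genes called over the table was 1, and it was 0 with low genes kept in, with no variance trend, with the replicate block and with the trend on the longest transcript length removed, and 2 with library weights. Leaving out 1 library gave 0 to 70 genes, with 70 without PFOA 2, 55 without DMSO 3, 0 without PFOA 3, DMSO 1 or DMSO 2 and 1 without PFOA 1. Of 3 fits added after the data were seen, leaving out both DMSO 3 and PFOA 1 gave 52, leaving out both DMSO 1 and DMSO 2 gave 0, with DMSO 3 as the sole control and assumed to vary like the others, and the trend on median transcript length gave 1.

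Signs turned for small differences. Rxra was at −0.0054 with library weights, −0.040 with the longest length trend removed and −0.038 without both DMSO 3 and PFOA 1, and Fabp3 was at 0.033 with the longest length trend removed. Without both DMSO 3 and PFOA 1, Pparg was at −0.034 and Plin2 at 0.017. Without both DMSO 1 and DMSO 2, Rxrb was at 0.020, Angptl4 at 0.15 and Pdk4 at −0.15. With 1 library left out, Pparg ranged from −0.052 to 0.075, Rxra from −0.023 to 0.039, Rxrb from −0.085 (without DMSO 3) to −0.0097 (without DMSO 2; −0.011 without PFOA 1), Plin2 from −0.14 (without DMSO 2) to −0.0081 (without PFOA 1), Angptl4 from −0.10 to 0.031, Pdk4 from −0.0072 to 0.27 and Pdk2 from −0.053 to 0.18. Ppara and Rxrg were fitted once, without the filter.

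The titles tie same-numbered libraries by number only. Their deviations from the group means correlated at −0.107, −0.0095 and −0.138, and the replicate block moved the count of called genes to 0. With 3 libraries per group, neither result can show whether replicates were paired. The unknown depth limits what can be said of Ppara, Pparg, Pdk4 and Acaa1b, whose levels are near or under 1 FPKM.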
